A study of Mus musculus with 4 samples.

Results

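The genes described here are 31 transcripts of the integrated stress response as it serves amino acid supply: the transcription factor ATF4 with its partners and effectors, carriers that bring amino acids into the cell, the enzymes of proline synthesis, and cytosolic tRNA synthetases. They were taken from a list of gene names, drawn up with earlier results of these data known. All 31 were found among the 53379 Ensembl gene identifiers of the count files, and all 31 passed the filter on low counts, as did 13792 genes in all. Expression was measured by bulk RNA-seq of tumor cells sorted from subcutaneous MC38 tumors in C57BL/6 mice. The line, a colon adenocarcinoma of the mouse that here carried GFP, is widely used in immunotherapy work, and 50000 cells were injected per animal. Every animal of both groups received the same sub-optimal anti-PD-1 antibody, 100 µg a dose on days 12, 15, 18 and 22, so there is no untreated group. Tumors were labelled non-responder (2 libraries) or responder (2 libraries). The labels do not give the animals' age, how response was scored, or whether the libraries within a group are from different animals, so the spread within a group may be technical.

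When amino acids run short or misfolded protein builds up, kinases phosphorylate the initiation factor eIF2 on its alpha subunit. General translation then falls while translation of ATF4 increases, and ATF4 switches on genes that import amino acids, make them and load them onto tRNA. Since ATF4 is set to a large part at translation, its mRNA is not a direct reading of the protein. In tumors the program is known as a response to poor nutrient supply, and tumor cells compete with T cells for several of the same amino acids.

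Many targets are bound by ATF4 and C/EBP partners through a composite element, here searched on both strands of RefSeq promoters (GRCm38.p6, 250 bases before to 50 after each annotated start) as TGATGNAA, or TTNCATCA on the other strand. Of the 31 genes, 23 had a promoter in the table, and 10 of these 23 (43.5%) held the element, against 4.51% of all 27025 genes in the table. Because these genes are known as ATF4 targets in part from such elements, the share describes how they were named. The 10 were Trib3, Chac1, Asns, Slc1a4, Pycr1, Aars, Gars, Iars, Tars and Yars. The 6 elements that lie wholly before the start are printed from 5′ to 3′ on the gene's strand, with the element in capitals. They differ in orientation and in the base written as N. In Chac1 (chr2:119351019-119351086, plus strand) the element began 193 bases before the start, in Asns (chr6:7693210-7693262, minus strand) 23, in Pycr1 (chr11:120643814-120643881, minus strand) 103, in Aars (chr8:111033700-111033767, plus strand) 112, in Gars (chr6:55037941-55038000, plus strand) 30, and in Tars (chr15:11399659-11399703, minus strand) 15.
Chac1: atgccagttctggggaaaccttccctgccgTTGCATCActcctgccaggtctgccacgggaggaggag
Asns: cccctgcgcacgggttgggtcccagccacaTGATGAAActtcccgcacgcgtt
Pycr1: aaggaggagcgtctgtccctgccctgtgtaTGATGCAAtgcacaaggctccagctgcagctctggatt
Aars: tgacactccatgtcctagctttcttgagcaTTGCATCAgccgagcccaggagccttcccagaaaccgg
Gars: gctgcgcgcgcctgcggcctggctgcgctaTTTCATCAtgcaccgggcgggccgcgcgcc
Tars: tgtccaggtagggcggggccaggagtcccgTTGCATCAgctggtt

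Values are CPM, read counts scaled to a common library depth with edgeR's TMM factors, and differences are log2 fold changes of responder over non-responder from edgeR's quasi-likelihood test, with the standard error (SE). Total counts were 18447041 to 21754063 per library. MC38 is labelled an adenocarcinoma, but epithelial markers were at or near 0: the 8 listed genes summed to 0.72 to 3.23 CPM per library, and Krt20 was at 0 in all 4. GFP was not analysed here. Leukocyte markers summed to 38.2 and 115 CPM in non-responder replicates 1 and 2. In responder replicates 1 and 2 they summed to 2.28 and 39.2 CPM. T and NK cell markers summed to at most 2.06 CPM in any library. Fibroblast markers summed to 9678 and 15946 against 8377 and 7311 CPM, mostly from Col3a1 (7597 and 13392 against 6897 and 5792 CPM). All 8 leukocyte, all 8 macrophage and all 8 tested fibroblast markers had a negative log2 fold change, the sign opposite to that of the genes described here; their part in the results was not tested. In bulk libraries fewer cells of a type and less RNA per cell cannot be told apart.

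Transcripts of the amino acid response were slightly more abundant in responder than in non-responder tumor cells, gene after gene, and none of the differences passed the test by itself. All 31 had a log2 fold change above 0, from 0.04 in Eprs to 0.91 in Slc7a3, where 48.9% of all tested genes did. Their median was 0.21, or 1.15-fold, against -0.01 over all tested genes. Both responder libraries lay above both non-responder libraries in 15 of 31 (48.4%), against 18.8% of all tested genes, and in none did both lie below, against 17.8%. Among the 15 is Slc7a3, which had few reads in every library. The lowest of the 4 libraries was a non-responder in 30 of 31 (56.8% of all tested genes) and the highest was a responder in 25 of 31 (43.1% of all tested genes).

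With edgeR and Benjamini-Hochberg adjustment over all 13792 genes, 0 of the 31 passed 0.05, as did 0 genes in all (0%), and the adjusted p of the 31 ran from 0.79 to 0.984. At an unadjusted p under 0.05, 1 of 31 (3.23%), Slc7a1, was higher, close to the 2.57% of all tested genes, and 0 were lower, against 3.63%. DESeq2 and limma-voom also passed 0 of the 31. The shared sign was kept under each scaling of the libraries that was tried, but not when libraries were left out: 27 and 24 of 31 were above 0 on leaving out non-responder replicate 1 or 2, and 28 and 31 on leaving out responder replicate 1 or 2. Without non-responder replicate 2 the median was 0.31, and the log2 fold change of Slc1a5 was 0.83.

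**Figure D1:**
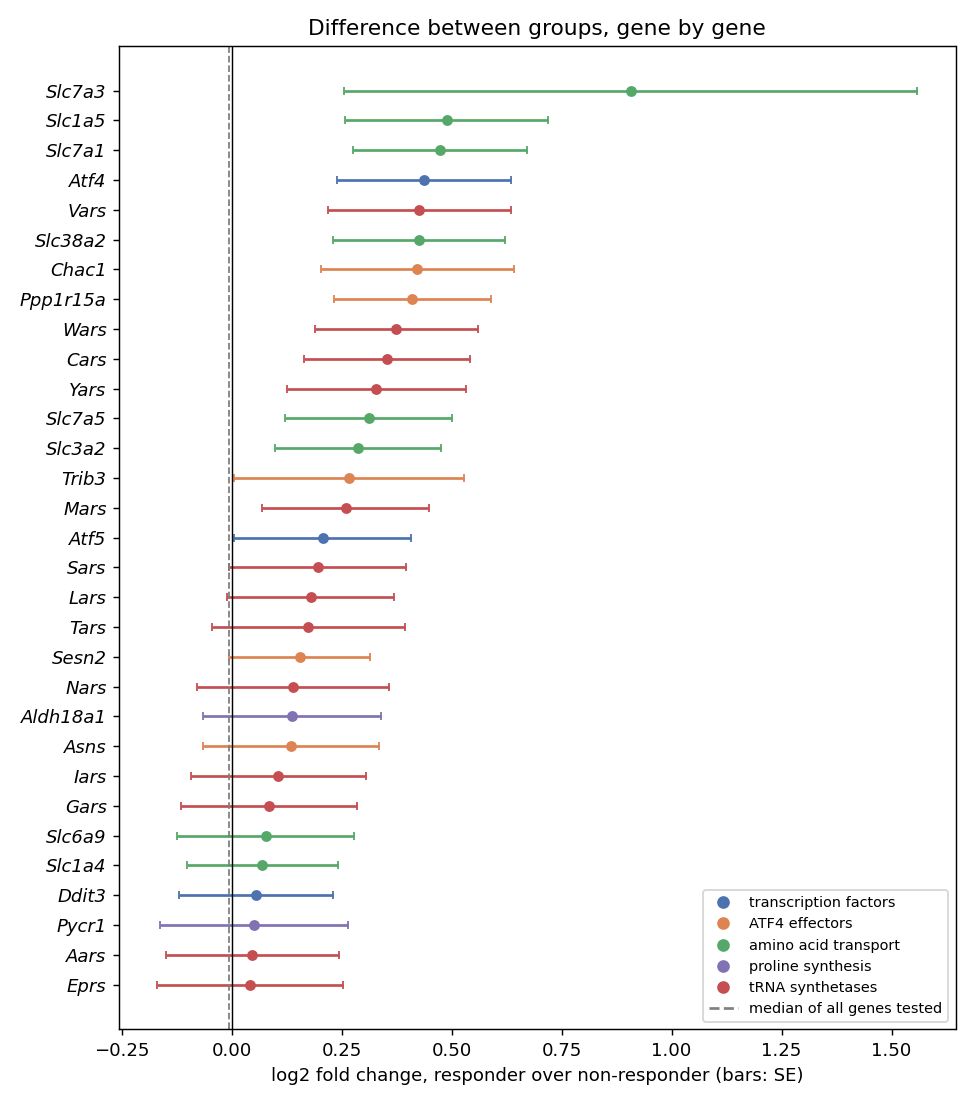
Log2 fold change of responder over non-responder (x axis) for each of the 31 genes (y axis), ordered by size and colored by role, with bars for the SE from edgeR. Every point lies right of 0, from 0.04 to 0.91, while the dashed line marks the median of all tested genes at -0.01.

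Of the 3 transcription factor genes, only Atf4 had groups that did not overlap. Atf4, on chromosome 15 from 80255184 to 80257540 on the plus strand of mm10, measured 448 and 506 CPM in non-responder samples against 646 and 645 CPM in responder samples. The responder libraries were nearly the same. The means were 477 ± 40.6 and 646 ± 1.06 CPM (SD, n = 2), a 1.35-fold difference (log2 fold change 0.44, SE 0.20), which stayed between 0.36 and 0.52 when single libraries were left out.

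Atf5, a related factor that ATF4 induces, had 149 and 183 CPM in non-responder samples against 210.1 and 173 CPM in responder samples, so responder replicate 1 was the highest and the groups overlapped. Its log2 fold change of 0.21 (SE 0.20) was 0.06 with responder replicate 1 left out and 0.36 with non-responder replicate 2 left out, and its difference from Atf4 was not tested. Ddit3, which encodes the pro-apoptotic factor CHOP of prolonged stress, was level, with 53.0 and 46.2 against 55.5 and 47.5 CPM. The log2 fold change was 0.05 (SE 0.17), and it went to -0.04 when non-responder replicate 2 was left out and to -0.07 when responder replicate 1 was.

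The effectors of the program differed in which libraries were low. Ppp1r15a encodes GADD34, the phosphatase subunit that reverses eIF2 phosphorylation. It had 68.0 and 55.3 CPM in non-responder samples against 78.3 and 85.7 CPM in responder samples, without overlap (log2 fold change 0.41, SE 0.18; 0.27 with non-responder replicate 2 left out). Genes that tissue dissociation can induce, of which Ppp1r15a is not a listed one, also summed higher in the responder libraries, 2593 and 4507 against 2178 and 1898 CPM; their part in the value was not tested. Chac1, an enzyme that degrades glutathione, had 17.0 and 22.7 against 24.2 and 28.9 CPM, again without overlap (log2 fold change 0.42, SE 0.22). That value was 0.23 when non-responder replicate 1 was left out and 0.65 when non-responder replicate 2 was.

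Sesn2, a leucine sensor that restrains mTORC1, kept the groups apart by a narrow margin, at 38.3 and 40.4 against 44.5 and 43.0 CPM. Trib3, a pseudokinase that feeds back on ATF4, had 81.5 CPM in non-responder replicate 1, and the remaining libraries had 139, 125 and 140.5 CPM. The difference (log2 fold change 0.27, SE 0.26) therefore rested on 1 library: it went to -0.06 with non-responder replicate 1 left out and to 0.70 with non-responder replicate 2 left out. Asns, which makes asparagine and is the classical target of the amino acid response, had 285 and 228 against 293 and 270.2 CPM. Here non-responder replicate 2 was the low library, and without it the log2 fold change of 0.13 (SE 0.20) was -0.02.

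The 8 amino acid carriers had a median difference of 0.37 on the log2 scale, or 1.29-fold. In 6 of 8 the groups did not overlap, with responders higher (75%, against 18.8% of all tested genes). Among the 6 is the scarce Slc7a3, with 0.94 CPM in non-responder replicate 2 against 0.99 CPM in responder replicate 1. With a filter of at least 5 CPM in 2 libraries Slc7a3 dropped out, and the median of the 7 carriers kept was 0.31. The median of 0.37 was the highest of the roles over the 4 libraries. With responder replicate 1 left out, that of the effectors was higher (0.35 against 0.32). Slc7a1, the carrier of arginine, lysine and ornithine, had 246 and 254 CPM in non-responder samples against 383 and 310.2 CPM in responder samples. Non-responder libraries were alike and both responder libraries were higher, replicate 1 most. The difference was 1.39-fold (log2 fold change 0.47, SE 0.20, edgeR adjusted p = 0.79), and its log2 value was 0.31 with responder replicate 1 left out. Slc7a1 lies on chromosome 5 from 148327410 to 148399904 on the minus strand.

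Slc38a2 imports neutral amino acids with sodium and is induced when they are scarce. It repeated that pattern, with 434 and 432 against 615 and 548 CPM (log2 fold change 0.43, SE 0.20). Slc1a5, the glutamine carrier, was graded across the libraries: 69.5 and 107 CPM in non-responder samples against 117 and 131 CPM in responder samples. The gap between the non-responder libraries was larger than that between the group means, and the log2 fold change of 0.49 (SE 0.23) was 0.22 without non-responder replicate 1.

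Slc7a5 and Slc3a2 encode the light and heavy chain of the exchanger that trades glutamine for leucine and other large neutral amino acids. Slc7a5 had 322 and 296 against 401 and 365 CPM, and Slc3a2 had 293 and 304 against 346 and 383 CPM. Both chains had groups that did not overlap and differences of 1.24-fold and 1.22-fold. Per exon length they also stood at nearly the same level, 93.3 and 94.0 RPKM (CPM divided by the exon length in kilobases) as the mean of the 4 libraries.

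The remaining carriers were level or scarce. Slc1a4, a carrier of alanine, serine and cysteine, had 63.1 and 64.0 against 72.8 and 60.6 CPM and was the only gene of the 31 whose lowest library was a responder. Slc6a9, the glycine carrier GLYT1, had 47.7 and 66.7 against 62.8 and 58.0 CPM. The log2 fold change of Slc6a9, 0.08, went to -0.14 when non-responder replicate 1 was left out, and that of Slc1a4, 0.07, to -0.07 when responder replicate 1 was. Slc7a3, a second carrier of cationic amino acids, was near the limit of detection with 5 and 21 reads in non-responder and 20 and 24 reads in responder libraries. Its log2 fold change of 0.91 had an SE of 0.65 and was 0.26 without non-responder replicate 1.

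**Figure D2:**
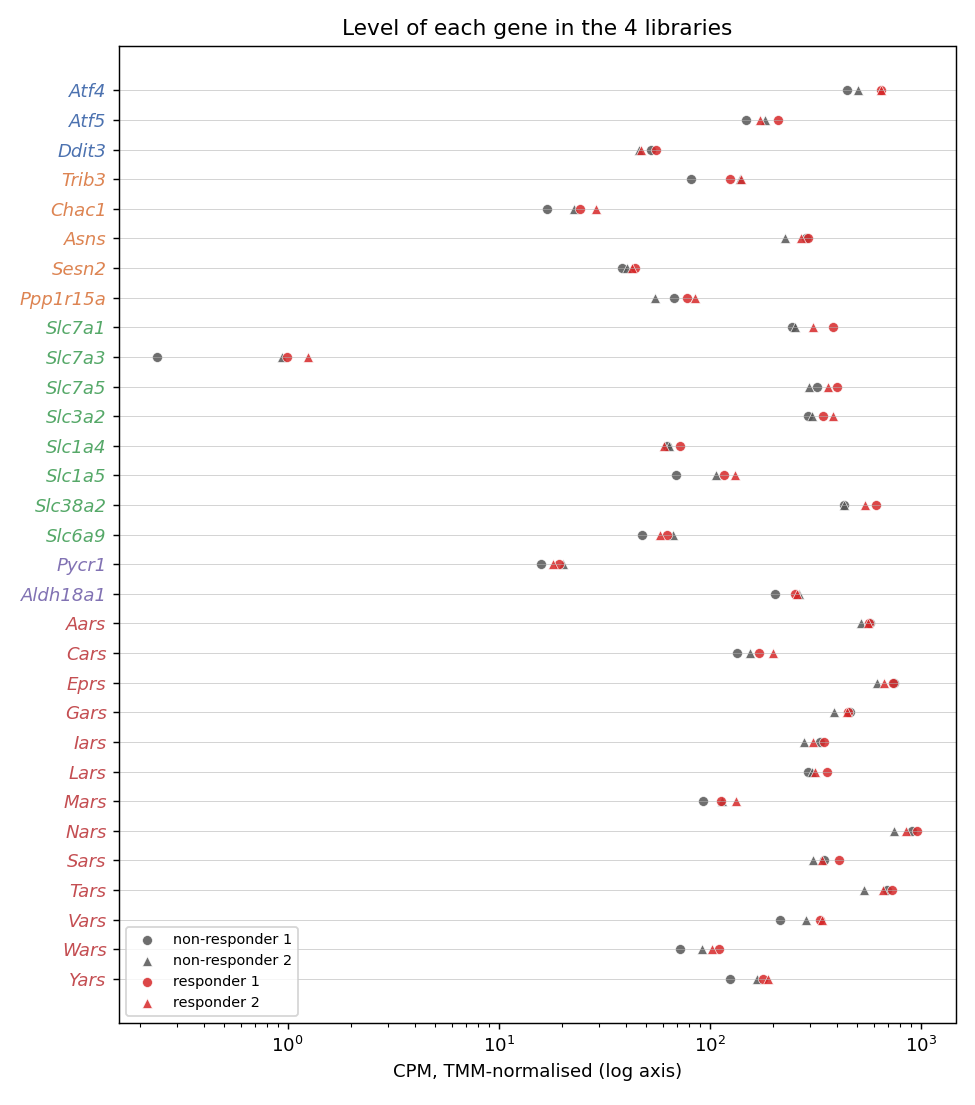
TMM-normalised CPM on a log axis (x axis) of each gene (y axis, names colored by role) in the 4 libraries, grey for non-responder and red for responder, circles for replicate 1 and triangles for replicate 2. Slc7a3 lies at or under 1.26 CPM in every library, while the other genes lie between 15.8 and 966 CPM with the 4 points close together.

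The enzymes of proline synthesis showed no separation of the groups. Aldh18a1, which makes the precursor from glutamate, had 204 and 264 CPM in non-responder samples against 255 and 259 CPM in responder samples. Pycr1, the mitochondrial enzyme of the last step, had 15.8 and 20.1 against 19.2 and 18.1 CPM. In both, non-responder replicate 1 was the lowest and non-responder replicate 2 the highest library. The log2 fold changes of 0.14 and 0.05 were -0.03 and -0.11 without non-responder replicate 1.

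The 13 tRNA synthetases had a median difference of 0.18 on the log2 scale, or 1.13-fold, with all 13 above 0. In 5 of 13 the groups did not overlap, with responders higher (38.5%, against 18.8% of all tested genes). Those 5 load cysteine (Cars), leucine (Lars), valine (Vars), tryptophan (Wars) and tyrosine (Yars). Vars had 215 and 285 CPM in non-responder samples against 333 and 339 CPM in responder samples (log2 fold change 0.43, SE 0.21). The responder libraries were alike, and non-responder replicate 1 was well below non-responder replicate 2. Yars went the same way, with 125 and 167 against 178 and 189 CPM. Cars had 135 and 156 against 171 and 199.6 CPM, so its responder libraries differed from each other as much as its non-responder libraries. On leaving out non-responder replicate 1 or 2, the log2 fold change was 0.24 or 0.64 in Vars and 0.14 or 0.55 in Yars.

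Wars is unusual among synthetases in that interferon gamma induces it. It had 72.3 CPM in non-responder replicate 1, 91.8 CPM in the other non-responder and 110.3 and 102 CPM in the responders, without overlap (log2 fold change 0.37, SE 0.18; 0.22 with the lowest library left out and 0.55 with the other non-responder left out). The listed interferon gamma response genes were low in that same library, with a sum of 3380 CPM, while the other non-responder summed to 8013 CPM and the responders to 7866 and 8148 CPM. Their part in the value of Wars was not tested. Lars, at 292 and 306 against 360.2 and 317 CPM, separated the groups by a smaller margin (log2 fold change 0.18, SE 0.19; 0.08 with responder replicate 1 left out).

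In the other 8 synthetases the groups overlapped. Nars, Tars, Eprs, Gars, Aars, Iars and Sars shared a shape: non-responder replicate 2 was the lowest library of each. Tars had 694 and 536 CPM in non-responder samples against 728 and 659.5 CPM in responder samples, and Nars had 909 and 745 against 966 and 856 CPM. In Eprs, Gars and Aars non-responder replicate 1 was in turn the highest library, as in Eprs with 748 and 618 against 736 and 670.3 CPM. Eprs is the enzyme that loads both glutamate and proline. Gars, for glycine, had 462 and 386 against 453 and 447 CPM, and Aars, for alanine, had 578 and 519.7 against 569.5 and 564 CPM. In Sars, for serine, and Iars, for isoleucine, responder replicate 1 was the highest instead, with 347 and 308 against 408 and 342 CPM and 332 and 279 against 348 and 309 CPM. When non-responder replicate 2 was left out, Eprs, Gars, Aars, Iars and Tars were no longer above 0 (-0.09 to -0.002), 8 of 13 synthetases were, and the median was 0.11. With responder replicate 1 left out the median was 0.08. The last of the 8, Mars, was lowest in non-responder replicate 1, at 92.6 and 114 against 114 and 134 CPM. With single libraries left out, the log2 fold change ran from 0.12 to 0.42 in Mars, from 0.0007 to 0.29 in Nars and from 0.058 to 0.32 in Sars, the lowest being without non-responder replicate 1, without its replicate 2 and without responder replicate 1 in that order. Ddit3 and Mars abut on opposite strands and their annotated ends overlap, and the counts were taken by strand.

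The synthetases thus fell into those lowest in non-responder replicate 1 (6 of 13) and those lowest in non-responder replicate 2 (7 of 13), and over all 31 genes these numbers were 18 and 12. Across the 13 synthetases the log2 ratio of non-responder replicate 2 to replicate 1 went with the GC content of the transcript. Pearson's r was 0.66 and Spearman's rho 0.68. It did so more loosely across all 31 genes (r = 0.27, rho = 0.51) and across 13738 tested genes (r = 0.27, rho = 0.36). The log2 fold change of responder over non-responder also went with GC content across the 13 synthetases (r = 0.595, rho = 0.48). Across all 31 genes (r = 0.05, rho = 0.13) and all tested genes (r = 0.09, rho = 0.13) that relation was weak. These genes share libraries and are not independent. Vars, with 60.9% GC, was 1.32-fold higher in non-responder replicate 2, and Tars, with 46.6% GC, was at 0.77 of its level in replicate 1. With the GC trend taken out of every library, an alternative added after seeing the data, 29 of 31 genes had a log2 fold change above 0 at a median of 0.20. The exceptions were Ddit3 and Aars, at -0.01 and -0.03.

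**Figure D3:**
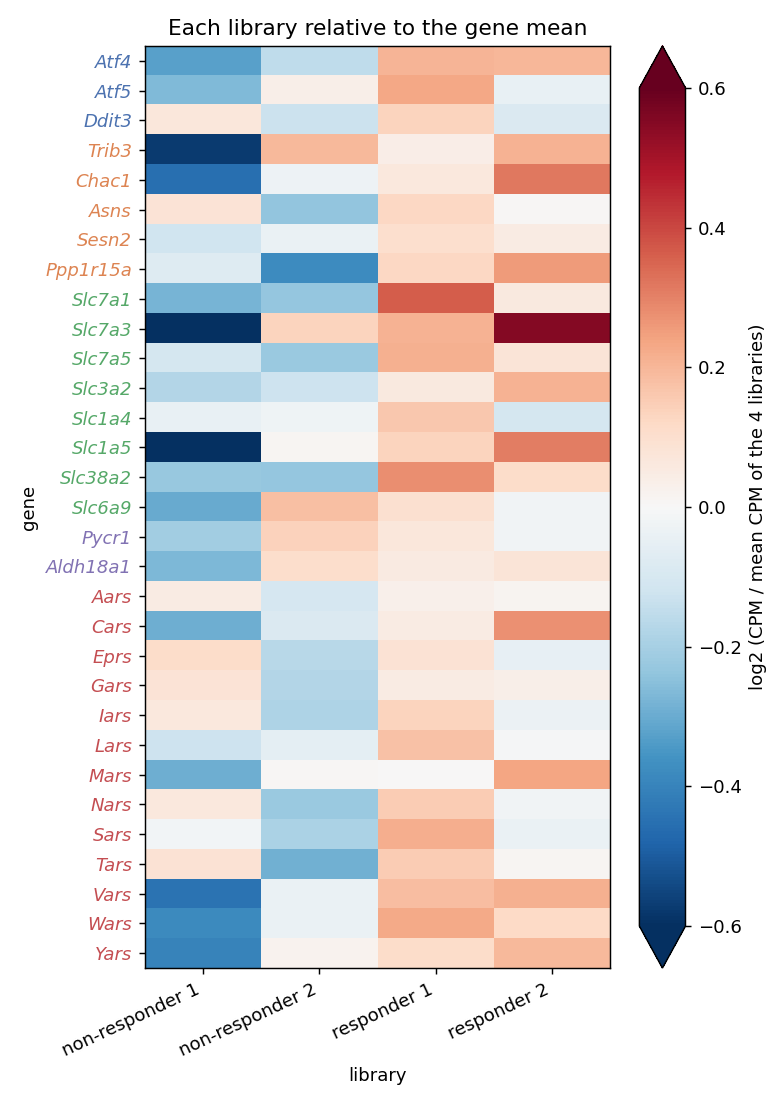
Log2 of CPM over the mean of the 4 libraries (color; blue is below the mean, red above, with the scale ending at 0.6 on either side) for each gene (rows, names colored by role) in each library (columns). Non-responder replicate 1 is the lowest library for 18 genes, among them Trib3, Slc1a5 and Vars, and non-responder replicate 2 for 12, among them Ppp1r15a, Tars and Nars.

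Per exon length, Nars and Atf4 were the most abundant of the 31, at 330.1 and 326 RPKM as the mean of the 4 libraries, above 99.6% of tested genes. Gars (140.1 RPKM), Tars (111 RPKM) and Slc38a2 (109.6 RPKM) followed. Pycr1 (4.66 RPKM) and Slc7a3 (0.23 RPKM) were the scarcest. The order depends on the annotated exon length, which joins all transcripts of a gene and is long for Eprs, at 18102 bases.

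The promoter element did not go with larger differences. The 10 genes that held it had a median log2 fold change of 0.12 (0.05 to 0.42), with groups apart in 2 of 10. The 13 with a promoter in the table but without the element had a median of 0.21 (0.04 to 0.47), with groups apart in 6 of 13. Over all tested genes 18.8% had groups apart with responders higher. Pycr1, Aars and Gars, whose elements are printed above, had log2 fold changes of 0.05, 0.05 and 0.09, and Chac1 had 0.42. No element in this window says nothing of sites elsewhere in the gene.

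Other genes of the pathway were taken from fixed lists. Of 26 further ATF4 targets 23 were tested and 22 had a log2 fold change above 0 (median 0.23). In 13 of the 23 (56.5%, against 18.8% of all tested genes) the groups separated upward and in 1 downward (against 17.8%). Psat1, an enzyme of serine synthesis, had 372 and 431 against 569 and 608 CPM (log2 fold change 0.55, SE 0.20). The transcription factor genes Atf3 and Cebpb had 7.78 and 8.30 against 10.8 and 15.8 CPM and 36.3 and 40.1 against 47.9 and 55.4 CPM. Both were highest in responder replicate 2, where the listed dissociation genes also had their highest sum (4507 CPM). The part of those genes in these values was not tested. Ddit4, an mTORC1 inhibitor that hypoxia and glucocorticoids also induce, was the only tested target below 0 (log2 fold change -0.78, SE 0.27). It had 103 and 97.2 CPM in non-responder samples against 74.3 and 42.2 CPM in responder samples. By edgeR 0 of the 23 passed after adjustment. At an unadjusted edgeR p under 0.05, 4 were higher (17.4%, against 2.57% of all tested genes) and 1 lower (against 3.63%). The number at that threshold changed with the library left out, as did that over all tested genes. On leaving out non-responder replicate 1 or 2, 21 and 20 of 23 were above 0, at a median of 0.25 each. With responder replicate 1 or 2 left out, 18 and 21 were, at medians of 0.21 and 0.33.

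Transcripts of the kinases that start the response were not higher, and mRNA levels do not measure kinase activity. Of the 15 genes for eIF2 kinases, eIF2 subunits, its exchange factor eIF2B and their regulators, 10 were above 0 and 5 below (median 0.09; -0.01 with non-responder replicate 2 left out, 0.004 with responder replicate 1 left out), and by edgeR 0 passed, 0 also at an unadjusted p under 0.05. All 4 kinase genes were among the 5 below 0. Eif2ak3, which encodes the endoplasmic reticulum kinase PERK, had 31.01 and 29.9 against 24.3 and 23.3 CPM (log2 fold change -0.35, SE 0.18). The amino acid sensing kinase gene Eif2ak4 had 51.3 and 53.1 against 48.2 and 49.8 CPM. Eif2b4, an eIF2B subunit gene, had 18.7 and 20.0 against 22.9 and 24.8 CPM.

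The remaining cytosolic synthetases and their complex partners went the way of the listed synthetases, with 10 of 10 above 0 at a median of 0.15. In 5 of 10 the groups were apart, with responders higher (50%, against 18.8% of all tested genes). Without non-responder replicate 2, however, 5 of 10 were above 0 at a median of 0.02. Eef1e1, a scaffold protein of the multi-synthetase complex, had 48.1 and 41.4 against 62.3 and 63.9 CPM (log2 fold change 0.50, SE 0.17). Of 17 mitochondrial synthetases 11 were above 0 (median 0.15, but 0.03 with non-responder replicate 1 left out and 0.05 with responder replicate 2 left out). The groups separated upward in 4 (23.5%, near the 18.8% of all tested genes) and downward in 1 (against 17.8%). Mars2, which loads mitochondrial methionine tRNA, had 13.9 and 13.8 against 19.2 and 22.3 CPM, while Nars2 had 15.6 and 11.9 against 11.9 and 10.0 CPM.

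Carriers outside the list did not share the sign. Of 24 carriers 13 were tested, 6 above and 7 below 0, at a median of -0.22. Slc38a1, a sodium-coupled glutamine carrier, had 189 and 160.1 against 227 and 197 CPM. Slc7a2, a carrier of cationic amino acids, had 1.30 and 2.65 against 0.55 and 0.89 CPM (log2 fold change -1.46, SE 0.54). The genes furthest below 0, Slc7a8, Slc7a2 and Slc43a2, had at most 5.43 CPM in any library. With a filter of at least 5 CPM in 2 libraries, 9 carriers were kept, 6 above and 3 below 0, and their median was 0.07; without non-responder replicate 2 the median of the carriers then tested was 0.02. Of 5 further proline genes 4 were tested, 2 above and 2 below 0 (median 0.14, but -0.06 without non-responder replicate 1). Aldh4a1, which acts in the breakdown of proline, had 2.80 and 3.05 against 1.69 and 1.41 CPM. In these lists too 0 genes passed by edgeR after adjustment with all 4 libraries and the filter on low counts. At an unadjusted edgeR p under 0.05 Eef1e1 (1 of 10 in its list) and Mars2 (1 of 17) were higher, against 2.57% of all tested genes. Slc7a2 (1 of 13) and Aldh4a1 (1 of 4) were lower, against 3.63%. With no filter on low counts 212 genes passed by edgeR. Among them were 1 of the further ATF4 targets and 1 of the carriers outside the list, both lower in responder samples.

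**Figure D4:**
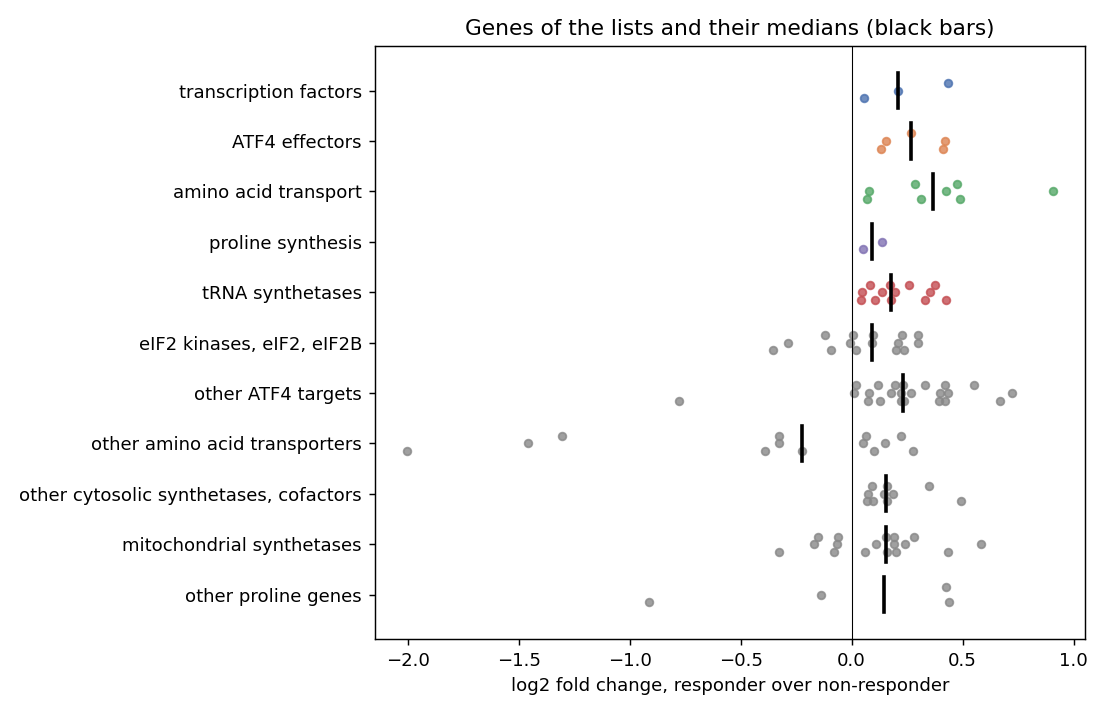
Log2 fold change of responder over non-responder (x axis) of each tested gene (points) by list (y axis), colored for the 31 genes and grey for the other pathway lists, with a black bar at each median. The medians run from 0.09 to 0.37 in the roles of the 31 genes, while the other carriers have a median of -0.22 with 3 scarce genes below -1.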

How the data were processed

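RNA-seq of 4 libraries of sorted MC38 tumor cells was analysed. Libraries were stranded and made from polyadenylated RNA, per the labels' protocols. STAR (version not given in the sources used here) and mm10/GRCm38 are named in the submitters' processing notes. featureCounts 1.6.1 assigned reads to Ensembl 91 genes with strand setting 2 and no multi-mapping reads, per the file headers. Each library has 1 file, and its deposited values are unnormalised counts. Genes with near-identical copies may be undercounted.

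Genes were matched to symbols by identifier (53274 of 53379). Genes passing edgeR's filterByExpr (minimum count 10) were tested in a responder against non-responder design with TMM factors and the robust quasi-likelihood test (edgeR 4.0.16, R 4.3.3), and p was adjusted by Benjamini-Hochberg over all of them at 0.05. The SE is the log2 fold change over the root of F. CPM use TMM factors, and RPKM also the files' exon length. All 31 genes are described; from each other list the text names the higher and the lower gene of smallest p, if at 1 CPM or more on average, and Eif2ak4, Atf3, Cebpb, Slc7a8 and Slc43a2 were named after their values were seen. One gene that this rule would name is not reported here. The genes and lists were chosen with earlier results of these data known. The fit was tested on simulated data in which the planted changes were larger than those of any of the 31 genes. That test does not cover differences of their size. Alternatives were other scalings and filters, DESeq2 1.42.0, limma 3.58.1 (voom), a replicate block, leaving out each library and removal of a GC trend.

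Total counts of 18447041 to 21754063 per library make counting error small beside the spread between libraries (biological coefficient of variation 0.216) for all but the scarcest gene, Slc7a3. With 2 libraries a group, the spread is estimated across genes.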

Additional observations from a re-analysis of the deposited data

How the results depend on the processing

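After adjustment 0 genes passed in edgeR (856 at an unadjusted p under 0.05) and 0 in limma-voom (916 at an unadjusted p under 0.05), 62 in DESeq2 (14 higher, 48 lower), 212 with no filter on low counts (69 higher, 143 lower) and 41 to 516 with single libraries left out. The counts were 41 and 516 on leaving out non-responder replicate 1 or 2, and 67 and 173 on leaving out responder replicate 1 or 2; the lone library is then assumed to vary like the others. Among these settings only Slc1a5 of the 31 genes passed, and only without non-responder replicate 2. With the replicate number as a block (replicate block), 32 genes passed (6 higher, 26 lower), 0 of them among the 31. In that edgeR fit 9 of the 31 had an unadjusted p under 0.05. Over all 13792 tested genes the block raised this number too, from 856 to 1724. The median log2 fold change of the 31 was 0.21 with the block. The numbers come from the titles and nothing in the labels pairs the libraries. Deviations from the group mean correlated at 0.373 between same-numbered libraries. With 2 libraries a group the deviations within a group are mirror images, so this value cannot show whether the numbers pair the libraries. The median over the 31 genes ran from 0.15 to 0.31 with single libraries left out, and from 0.20 to 0.23 under the other planned settings, all with every tested gene above 0. Genes that went below 0 with a library left out had log2 fold changes of -0.066 to 0.16 (Ddit3), -0.063 to 0.70 (Trib3), -0.018 to 0.31 (Asns), -0.071 to 0.20 (Slc1a4), -0.14 to 0.34 (Slc6a9), -0.11 to 0.23 (Pycr1), -0.034 to 0.33 (Aldh18a1), -0.030 to 0.13 (Aars), -0.092 to 0.19 (Eprs), -0.040 to 0.23 (Gars), -0.015 to 0.24 (Iars) and -0.0022 to 0.38 (Tars). With the GC trend of each library removed, added after seeing the data, Ddit3 was at -0.0074 and Aars at -0.028. The cause was not tested. Slc7a3 is limited by depth and dropped out at 5 CPM.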
